A study of Mus musculus with 3 samples.

Results

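A set of 10 genes that build and remodel the actin cytoskeleton of lymphocytes was followed in normal mouse thymus: the cytoplasmic actin gene Actb, the monomer-binding and turnover genes Tmsb4x, Pfn1 and Cfl1, the nucleation-promoting gene Was with its partner Wipf1, the GTPases Rac2 and Rhoh, and the filament-binding genes Coro1a and Lcp1. The genes were listed by symbol and not by their counts, although earlier results of these data were known. By gene identifier, all 10 were found among 52636 counted identifiers. All 10 were also among the 16548 genes that passed the low-count filter.

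The study set T cell lymphomas lacking Cic, which encodes the transcriptional repressor capicua, against thymus of control littermates. The samples described here are the control group: 3 libraries of whole normal thymus from C57BL/6 mice of genotype Cic flox/flox + TAM, treated with tamoxifen. They are called thymus 1, 2 and 3. The lymphomas are not analysed here, so no contrast between genotypes was made, and the labels of these libraries name no Cre driver and no age. The labels also name no animal for a library, so a p-value here speaks of the spread among these libraries alone, part of which may be technical.

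Actin exists as monomers and as filaments, and a migrating or signalling T cell converts one into the other within moments. Thymosin beta 4 holds monomers in reserve, profilin hands them to growing filament ends, and cofilin severs old filaments so that monomers return to the pool. New branches are nucleated by the Arp2/3 complex, which WASP and the related WAVE proteins switch on below the T cell receptor. Developing thymocytes use this machinery to move through the thymus and to form contacts with the cells that select them, and human loss of WAS, WIPF1, RAC2, RHOH or CORO1A impairs the immune system.

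Reads assigned to genes numbered 30414788, 28587087 and 25408442 in thymus 1, 2 and 3. Levels are given as CPM, the count scaled to the library's assigned reads with TMM factors, and levels of different genes were compared as CPM per kilobase of annotated exon unless another length is named. The tissue label was checked against 9 markers of double-positive thymocytes, the main cells of the thymus. All 9 stood at or above 10 CPM per kilobase, and they summed to 11304, 10870 and 11519 CPM in thymus 1, 2 and 3. Markers of other cells were also present: the sums were 1159, 951 and 874 CPM for 7 macrophage genes, 1370, 1393 and 1426 CPM for 6 thymic epithelial genes, 174, 150 and 171 CPM for 8 fibroblast and smooth muscle genes, and 115, 126 and 102 CPM for 5 endothelial genes. Sums were 94.3, 85.8 and 71.5 CPM for 5 B cell genes, 18.6, 15.6 and 35.7 CPM for 5 neutrophil genes, and 43.6, 41.7 and 42.9 CPM for 5 skeletal muscle genes. No marker was at 0 in all 3 libraries, and Elane, Cnn1, Ckm and Myh4 were below 1 CPM in each. In bulk tissue, fewer cells of a type and less RNA per cell cannot be told apart, and actin genes are used by all of these cells.

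Promoter windows of 300 bases, running from 250 before to 50 after the annotated start, were available for 8 of the 10 genes, in 12 windows, from RefSeq on GRCm38.p6. Rac2 and Actb were not in that table. The windows below are shown because they set genes with a GGAAGT match beside genes without one. That hexamer holds the GGAA core read by ETS-family factors, which are prominent in blood cells. Capitals mark each GGAAGT, found on either strand, and the sequences run 5′ to 3′ on the strand of the gene. The Was window lies at chrX:8090442-8090741 on the minus strand, the Pfn1 window at chr11:70654601-70654900 on the minus strand, the Tmsb4x window at chrX:167209169-167209468 on the minus strand and the Rhoh window at chr5:65863334-65863633 on the plus strand.
Was: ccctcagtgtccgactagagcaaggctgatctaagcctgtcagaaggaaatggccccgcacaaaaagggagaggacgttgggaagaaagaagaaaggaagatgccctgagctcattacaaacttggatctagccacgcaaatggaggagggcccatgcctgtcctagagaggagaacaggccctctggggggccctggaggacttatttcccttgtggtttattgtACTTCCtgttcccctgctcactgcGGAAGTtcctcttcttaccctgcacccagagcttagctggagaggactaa
Pfn1: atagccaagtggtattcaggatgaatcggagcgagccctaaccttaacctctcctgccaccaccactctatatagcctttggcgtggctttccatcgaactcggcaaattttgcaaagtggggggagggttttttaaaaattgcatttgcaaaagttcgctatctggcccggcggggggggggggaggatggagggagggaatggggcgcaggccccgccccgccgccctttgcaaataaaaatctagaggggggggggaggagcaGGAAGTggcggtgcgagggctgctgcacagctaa
Tmsb4x: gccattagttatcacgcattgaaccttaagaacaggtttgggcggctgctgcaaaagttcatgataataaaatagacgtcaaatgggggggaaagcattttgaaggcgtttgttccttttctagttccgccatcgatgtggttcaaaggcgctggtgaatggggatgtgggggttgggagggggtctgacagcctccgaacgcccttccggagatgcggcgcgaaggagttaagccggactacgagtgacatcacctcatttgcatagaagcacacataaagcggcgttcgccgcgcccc
Rhoh: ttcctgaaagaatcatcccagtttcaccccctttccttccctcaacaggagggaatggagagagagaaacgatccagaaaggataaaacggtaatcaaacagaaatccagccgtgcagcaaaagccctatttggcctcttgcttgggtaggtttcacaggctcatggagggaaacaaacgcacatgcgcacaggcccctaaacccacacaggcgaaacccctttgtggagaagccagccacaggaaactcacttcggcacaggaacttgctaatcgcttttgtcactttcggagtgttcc

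The Was window held GGAAGT at the start site itself and, on the other strand, 24 bases before it, whereas the Pfn1 window held it 16 bases after the start. The Tmsb4x and Rhoh windows held none. Across the 12 windows GGAAGT was found in 7, belonging to Was, Wipf1, Pfn1, Cfl1 and Lcp1, while 23.8% of all 32817 windows of this length held it. GGGCGG, the GC box read by Sp factors, was found in 7 windows of 6 genes (Coro1a, Wipf1, Tmsb4x, Pfn1, Cfl1 and Lcp1), against 35.6% of all windows. CCAAT was found in 2 windows, of Wipf1 and Cfl1, against 37.4% of all. TATAAA was in none of the 12 windows and in 13.6% of all. The CArG box, the site of serum response factor (SRF), a known regulator of actin genes, was also in none of the 12 and in 1.63% of all. Each motif was searched on both strands, a CArG box can itself contain CCAAT or TATAAA, and a match is a description of the letters only.

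The 10 genes together took 0.870%, 0.870% and 0.848% of assigned reads in thymus 1, 2 and 3. Their levels spanned from 26.0 ± 1.20 CPM per kilobase for Wipf1 to 2101 ± 260 for Tmsb4x (mean ± SD, n = 3, as for all such values here), against a median of 4.98 CPM per kilobase over all tested genes. The order by mean level was Tmsb4x, Actb, Coro1a, Cfl1, Pfn1, Rac2, Was, Lcp1, Rhoh and Wipf1. Of the 9 neighbouring pairs in that order, 8 did not overlap in their ranges over the 3 thymi. Lcp1 and Rhoh did overlap, with a lowest Lcp1 value of 33.5 and a highest Rhoh value of 36.6 CPM per kilobase. The order depends on the length used: per kilobase of the longest protein-coding transcript, Pfn1 stood above Actb at 828 against 805 and Rhoh (67.5) and Lcp1 (88.0) stood above Was (48.3).

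**Figure D1:**
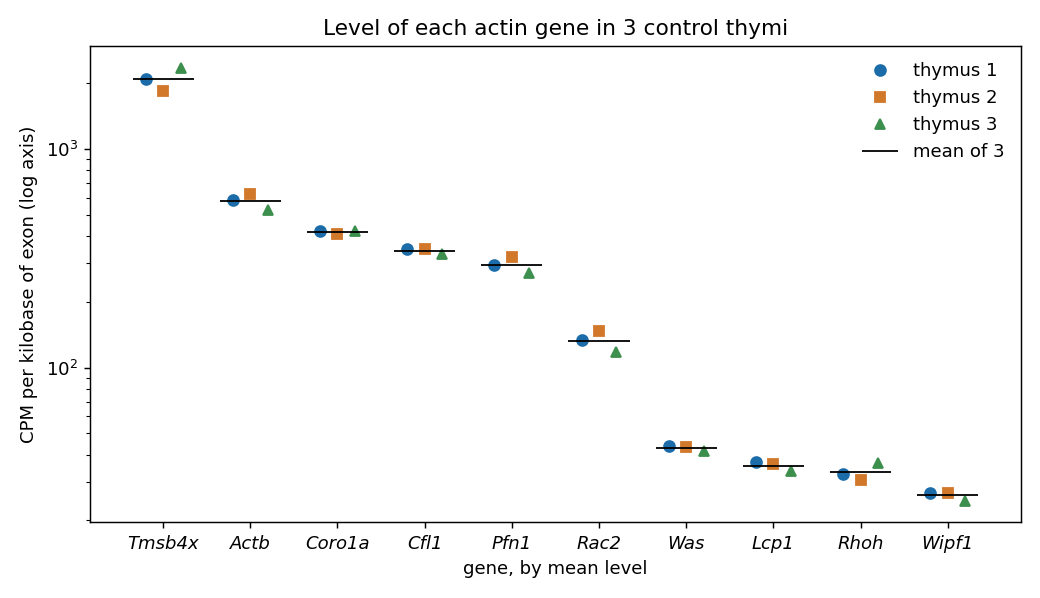
Level of each gene in CPM per kilobase of exon (vertical axis, logarithmic), with 1 point per thymus and a line at the mean of 3, in order of mean level. Tmsb4x stands apart at 2101, 5 genes lie between 133 and 577, and Was, Lcp1, Rhoh and Wipf1 lie between 26.0 and 42.9.

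Actb encodes beta-actin, the main building block of non-muscle filaments. It was read by 47527, 48827 and 34978 counts in thymus 1, 2 and 3, which came to 1560, 1662 and 1417 CPM. Thymus 2 was highest and thymus 3 lowest, a span of 1.17-fold. At 577 ± 45.9 CPM per kilobase it ranked 30 among 14030 tested protein-coding genes. The other cytoplasmic actin gene, Actg1, had 20.6, 23.9 and 18.5 CPM per kilobase in the same order, so that Actb lay 27.6 ± 1.46 times above it and took 96.5 ± 0.184% of the pair. Of the 50-base stretches of Actb, 9.12% recur in transcripts of other genes, against 36.3% for Actg1. Because reads that map to several places are not counted, Actg1 in particular is uncertain. With shared stretches taken out of the length, the ratio was 19.3 ± 1.02. The muscle actin genes Acta1, Actc1 and Actg2 were below 1 CPM in all 3 libraries, and Acta2, of smooth muscle, had 2.20 ± 0.438 CPM per kilobase.

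Tmsb4x encodes thymosin beta 4, the small peptide that sequesters actin monomers. Its counts were 87693, 74170 and 79932, or 2878, 2525 and 3238 CPM in thymus 1, 2 and 3. Thymus 3 was highest and thymus 2 lowest, the reverse of Actb, with a span of 1.28-fold that was the widest of the 10 genes. At 2101 ± 260 CPM per kilobase Tmsb4x ranked 5 among protein-coding genes, behind the mitochondrially encoded mt-Co1, mt-Cytb and mt-Nd1 and the ribosomal gene Rplp1. The related thymosin gene Tmsb10 had 102, 110 and 94.8 CPM per kilobase, and Tmsb4x lay 20.7 ± 4.11 times above it. Tmsb10 shares 27.0% of its stretches with other genes, and the ratio was 15.1 ± 3.0004 without them.

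Pfn1 encodes profilin 1, which exchanges the nucleotide on actin monomers and feeds them to growing ends. It had 713, 774 and 651 CPM in thymus 1, 2 and 3 and 296 ± 25.4 CPM per kilobase (rank 68). Its pattern was that of Actb, with thymus 2 highest and thymus 3 lowest. Pfn2, the profilin best known from neurons, had 10.1 ± 0.977 CPM per kilobase. Pfn1 lay 29.8 ± 5.53 times above it, or 55.0 ± 10.2 times per kilobase of the longest protein-coding transcript. Pfn1 took 96.6 ± 0.571% of the sum of Pfn1, Pfn2 and Pfn4, and Pfn4 was below 1 CPM in all libraries.

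Cfl1 encodes cofilin 1, the filament-severing protein of non-muscle cells. Its values were 995, 993 and 939 CPM, and 343 ± 11.2 CPM per kilobase (rank 55). The spread of 1.06-fold was narrow, with thymus 3 lowest. The muscle form Cfl2 had 24.0 ± 1.88 CPM per kilobase and destrin (Dstn), a further severing protein, 50.03 ± 1.16. Cfl1 lay 14.4 ± 1.51 times above Cfl2 and 6.86 ± 0.159 times above Dstn. A stretch of Cfl1 recurs in Gm6180, which was itself counted at about 2 CPM in each thymus.

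Transcripts of the monomer-handling genes were next set against actin transcripts within each library. Thymosin beta transcripts (Tmsb4x with Tmsb10) per actin transcript (Actb with Actg1) came to 3.65, 3.03 and 4.49 in thymus 1, 2 and 3. Profilin 1 transcripts per actin transcript came to 0.492, 0.499 and 0.495, and cofilin 1 transcripts to 0.581, 0.542 and 0.603. The means were 3.72 ± 0.732 for thymosin beta, 0.495 ± 0.00377 for profilin 1 and 0.575 ± 0.0309 for cofilin 1. These ratios depend on the length used: per kilobase of the longest protein-coding transcript, Tmsb4x, Pfn1, Cfl1 and Actb had 3334, 828, 415 and 805. Actg1, part of the actin sum, is uncertain because of its shared stretches. The thymosin and cofilin ratios were highest in thymus 3 and lowest in thymus 2, and whether the spread differed between the ratios was not tested. The libraries also differed by transcript GC content: across tested genes, its Spearman correlation with a gene's deviation from its mean was −0.165, 0.416 and −0.290 in thymus 1, 2 and 3. Tmsb4x transcripts hold 46.3% GC and Actb 54.4%. With that trend removed, the highest Tmsb4x to Actb ratio was 1.37-fold above the lowest, against 1.504-fold as counted, and for Pfn1 to Actb the span was 1.01-fold, against 1.02-fold as counted.

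**Figure D2:**
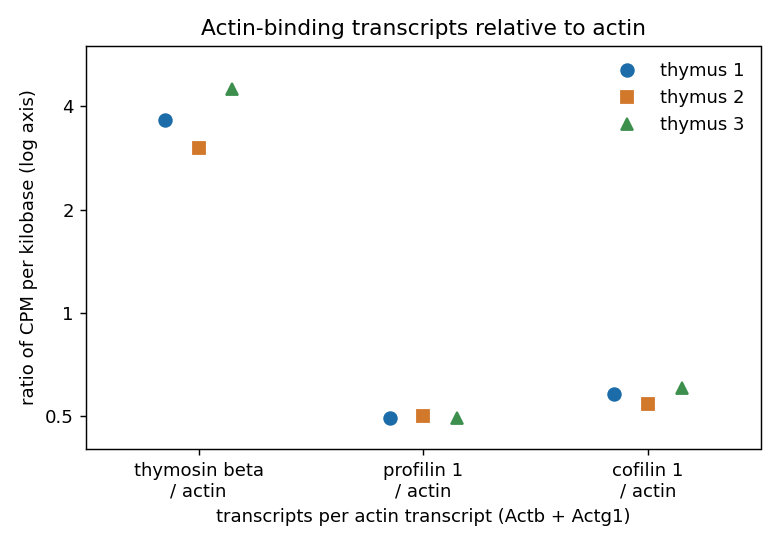
Ratio of CPM per kilobase of annotated exon (vertical axis, logarithmic), with 1 point per thymus. Thymosin beta, profilin 1 and cofilin 1 transcripts are set against the sum of Actb and Actg1, and the ratios depend on the length used. The thymosin ratio spreads from 3.03 to 4.49, whereas the 3 profilin 1 points lie between 0.492 and 0.499.

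Was encodes WASP, the blood cell activator of the Arp2/3 complex that is defective in Wiskott-Aldrich syndrome. It was counted at 3163, 3039 and 2452 reads, or 104, 103 and 99.3 CPM in thymus 1, 2 and 3. The 3 libraries lay within 1.05-fold of each other. Per kilobase it had 43.6, 43.4 and 41.7 CPM, against 12.6, 12.03 and 13.6 for its broadly expressed relative Wasl, which encodes N-WASP. Was was thus higher in each thymus, by 3.38 ± 0.287 times, or by 1.30 ± 0.111 times in CPM without any length. Of the Was stretches, 4.03% recur in transcripts of other genes.

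Wipf1 encodes WIP, which binds WASP and protects it from degradation. It had 157, 158 and 145 CPM, with thymus 3 lowest, and 26.0 ± 1.20 CPM per kilobase, the lowest level of the 10 genes. Its relative Wipf2 had 7.83 ± 0.416, so that Wipf1 lay 3.33 ± 0.161 times above it. Was transcripts per Wipf1 transcript came to 1.64, 1.62 and 1.69 in thymus 1, 2 and 3, or 1.65 ± 0.0380. That ratio also depends on the length: without any length the means were 102 CPM for Was and 153 CPM for Wipf1.

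Rac2 encodes the Rac GTPase of blood cells, which acts upstream of WAVE and Arp2/3. It had 12598, 13380 and 9017 counts, or 413, 455 and 365 CPM in thymus 1, 2 and 3. Thymus 2 was highest and thymus 3 lowest, 1.25-fold apart. Per kilobase it had 133, 147 and 118 CPM, against 55.9, 61.5 and 52.8 for the widely expressed Rac1, which followed the same order. Per kilobase, the ratio of 2.33 ± 0.0898 was the smallest of any pair except that of Rhoh with Rhoa. Without any length it was 1.61 ± 0.0620, above 1.40 for Rhoh with Rhoa and 1.30 for Was with Wasl. Rac2 took 67.6 ± 1.06% of the Rac1, Rac2 and Rac3 sum per kilobase.

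Rhoh encodes a blood cell protein related to the GTPases that itself lacks GTPase activity and, in mice, supports T cell receptor signalling during thymic selection. Its counts were 10227, 9308 and 9337, or 336, 317 and 378 CPM. Thymus 3 was highest and thymus 2 lowest, as for Tmsb4x. In CPM per kilobase it had 32.5, 30.6 and 36.6, against 33.3, 33.2 and 31.8 for Rhoa, its ubiquitous relative. These ranges overlapped and the ratio of 1.02 ± 0.119 included 1, so Rhoh and Rhoa did not differ beyond their spread. That ratio depends on the annotated length: it was 0.604 ± 0.0706 per kilobase of the longest protein-coding transcript and 1.40 ± 0.164 without any length.

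Coro1a encodes coronin 1A, which binds filaments and the Arp2/3 complex and is needed for naive T cell survival. It had 35954, 33442 and 29088 counts, or 1180, 1138 and 1179 CPM, the narrowest spread of the 10 genes as counted, at 1.04-fold. With the GC trend removed the spread was wider than that of Was, Wipf1, Cfl1, Lcp1, Actb and Pfn1, with log2 deviations of −0.11 in thymus 2 and 0.07 in thymus 3. At 419 ± 8.49 CPM per kilobase it ranked 42. Coro1b had 65.3 ± 0.605 and Coro1c 8.54 ± 0.841 CPM per kilobase, so that Coro1a lay 6.41 ± 0.186 and 49.4 ± 5.78 times above them. Per kilobase of the longest protein-coding transcript the Coro1c ratio was 28.4 ± 3.33. No 50-base stretch of Coro1a recurs in another gene's transcripts.

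Lcp1 encodes L-plastin, the filament bundler of white blood cells. It had 10748, 10080 and 7856 counts, or 353, 343 and 318 CPM in thymus 1, 2 and 3. Thymus 1 was highest and thymus 3 lowest, at a level of 35.6 ± 1.87 CPM per kilobase. The plastins of epithelia and of other solid tissues, Pls1 and Pls3, had 2.65 ± 0.188 and 3.90 ± 0.538, so that Lcp1 lay 13.5 ± 1.55 and 9.25 ± 1.49 times above them. With the longest protein-coding transcript as the length, these ratios were 31.8 ± 3.65 and 17.5 ± 2.83. The macrophage marker sum and the B cell marker sum ran in the same order over the libraries as Lcp1, Was and Cfl1, with thymus 1 highest and thymus 3 lowest. Without thymus 3, none of these genes varied beyond counting noise, so their order between thymus 1 and 2 is not settled. The adjusted p was then 0.143 for Lcp1, 0.946 for Was and 0.875 for Cfl1 in an edgeR goodness of fit with the dispersion set to 0. The part of macrophages and B cells in these values was not tested.

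In all, the listed gene stood above its relative in every thymus in 12 of 13 pairs, the exception being Rhoh with Rhoa. The pairs were chosen with earlier results of these data known. A sign-flip test over 3 libraries cannot go below an exact two-sided p of 0.25, so no pair was tested.

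**Figure D3:**
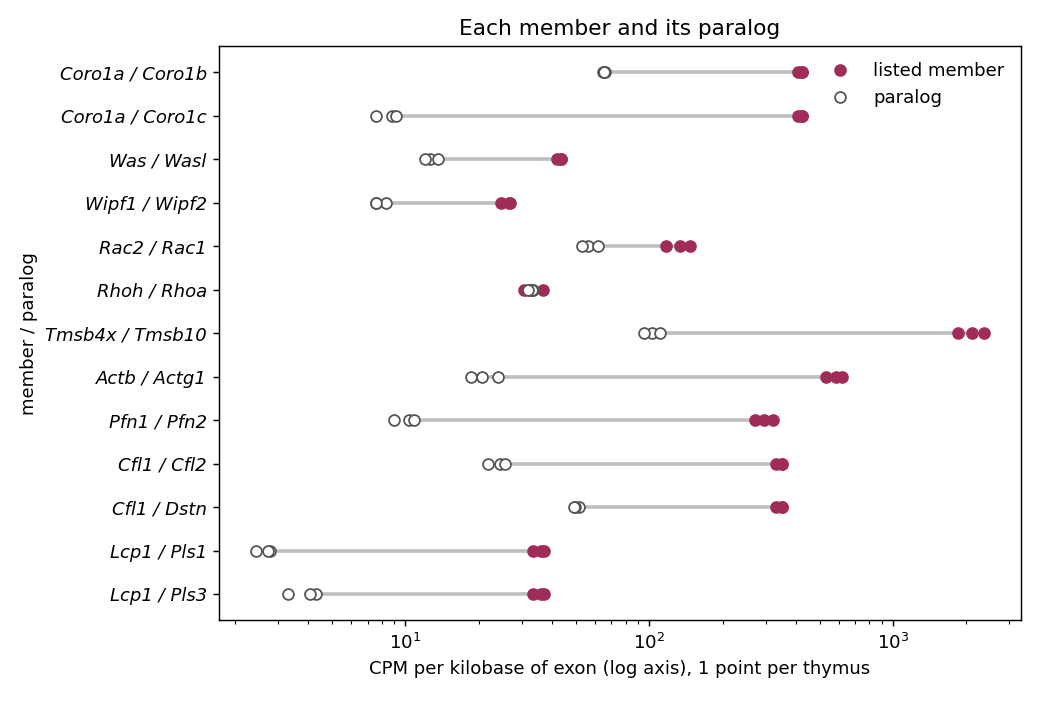
Each gene of the list (filled points) beside its relative (open points) on a logarithmic axis of CPM per kilobase of exon, with 1 point per thymus. In 12 of 13 pairs the filled points lie to the right of the open ones, and Rhoh overlaps Rhoa.

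The list was then read for differences between the thymi. None of the 10 genes was more variable than the trend of all genes at an adjusted p under 0.05 by edgeR's quasi-likelihood fit, a call made for 0.0604% of tested genes, and none had an unadjusted p under 0.05. None was called by a negative binomial goodness of fit in edgeR, and none was a DESeq2 dispersion outlier. The lowest adjusted p in the quasi-likelihood fit, 0.984, belonged to Rac2, Tmsb4x and Rhoh, whose dispersion relative to the trend was 2.51, 2.22 and 1.75. The median of that ratio was 0.823 over the 10 genes and 0.797 over all tested genes.

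Against counting noise alone, 9 of the 10 genes varied at an adjusted p under 0.05 in an edgeR goodness of fit with the dispersion set to 0, a call made for 43.4% of tested genes. Among the 2618 tested genes counted at least as high as Was, the lowest of the 10 in CPM, the share was 80.4%. Was was the gene not called (adjusted p = 0.309), with a counting error of 2.02% at its lowest count. The smallest counting error was 0.367%, for Tmsb4x. The calls of Coro1a, Wipf1, Cfl1 and Lcp1 rested on 1 library: without thymus 2 the adjusted p was 0.847 for Coro1a, and without thymus 3 it was 0.873 for Wipf1, 0.875 for Cfl1 and 0.143 for Lcp1. The calls of Rac2, Rhoh, Tmsb4x, Actb and Pfn1 stood with any library left out.

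All 10 genes lay within 1.5-fold between their highest and lowest library, as did 86.1% of all tested genes and 98.3% of those counted at least as high as Was. The median coefficient of variation was 6.61% over the 10, against 9.06% over all tested genes and 5.52% over those counted at least as high as Was. Thymus 3 was the lowest library for 7 of the 10 genes (39.6% of all tested genes), and thymus 1 was the lowest for none (24.3% of all). Among genes counted at least as high as Was, the lowest library was thymus 1 for 15.9%, thymus 2 for 52.6% and thymus 3 for 31.5%.

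By library, 5 of the 10 genes fell into opposite orders. Tmsb4x and Rhoh deviated from their means by 0.18 and 0.14 on the log2 scale in thymus 3 and by −0.18 and −0.11 in thymus 2. Rac2, Actb and Pfn1 deviated the other way, by −0.17, −0.12 and −0.13 in thymus 3 and by 0.15, 0.11 and 0.12 in thymus 2. Was, Cfl1 and Lcp1 were highest in thymus 1 and lowest in thymus 3, but without thymus 3 they did not vary beyond counting noise. Wipf1 had thymus 2 highest and thymus 3 lowest by smaller margins than Rac2, Actb and Pfn1, and Coro1a had thymus 2 lowest. The double-positive thymocyte sum ran over the libraries in the order of Tmsb4x and Rhoh, and the endothelial sum in that of Rac2, Actb and Pfn1. Their part in these values was not tested.

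Tmsb4x and Rhoh transcripts hold 46.3% and 46.9% GC, and those of Rac2, Actb and Pfn1 53.9% to 58.2%. Lcp1, at 46.2% GC, deviated by −0.09 in thymus 3 and by 0.02 in thymus 2. With the GC trend removed, Tmsb4x and Rhoh had deviations of 0.16 and 0.14 in thymus 3 and of −0.16 and −0.10 in thymus 2. Rac2, Actb and Pfn1 then had −0.12, −0.08 and −0.08 in thymus 3. In thymus 2 their deviations were 0.10, 0.05 and 0.05 with the trend removed, against 0.15, 0.11 and 0.12 as counted.

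**Figure D4:**
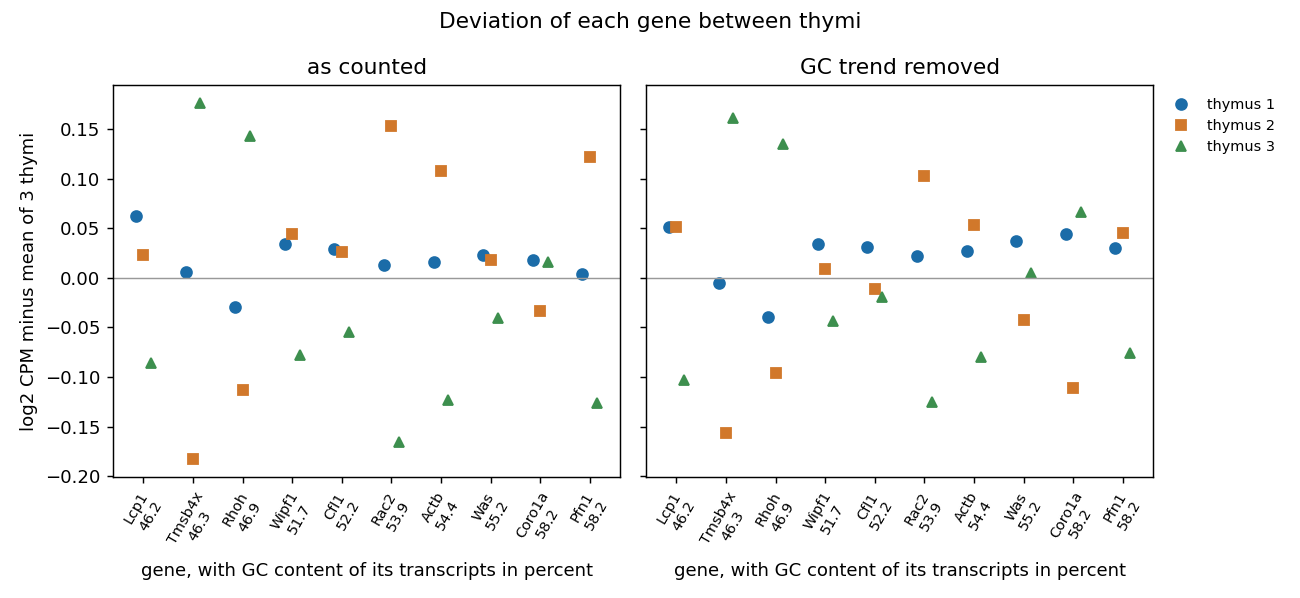
Deviation of log2 CPM from the mean of 3 thymi (vertical axis) for each gene, ordered by the GC content of its transcripts, as counted (left) and with the trend on GC content removed (right). Tmsb4x and Rhoh are highest in thymus 3 in both panels, and Rac2, Actb and Pfn1 are lowest there in both.

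For each gene, the protein-coding gene nearest in level over the 3 libraries was sought by the root mean square difference of log2 CPM per kilobase. For Rac2 this was Gnai2, a G protein subunit (difference 0.0433), and for Cfl1 it was Arhgdib (0.0793). Coro1a was nearest to Arhgap45 (0.108) and Actb to the ribosomal gene Rplp0 (0.152). Tmsb4x had no near neighbour, its closest being mt-Nd2 at 0.610. The closest matches of the others were Actr1a for Was, Capn1 for Wipf1, Tmem242 for Rhoh, Psap for Pfn1 and H6pd for Lcp1, at 0.0140 to 0.0603. These rest on 3 libraries and describe levels only.

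The wider actin pathway was read in 134 further genes, of which 130 passed the low-count filter. None of them was called more variable than the trend, and 2 had an unadjusted p under 0.05. Beyond counting noise, 97 varied (74.6%, against 43.4% of all tested genes and 80.4% of those counted at least as high as Was). Their median level was 16.6 CPM per kilobase and their median coefficient of variation 7.94%. The 2 genes were the bundler Fscn1, with 40.1, 55.3 and 25.5 CPM (adjusted p = 0.506 by edgeR), and the Rac GAP Arhgap15, with 165, 134 and 188 CPM (adjusted p = 0.984). They were named after their values were seen. Below 1 CPM in all 3 libraries were Coro6, Actr3b and Arhgdig beside Pfn4 and the muscle actins named above.

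Downstream of WASP, 8 of 10 Arp2/3 subunit genes varied beyond counting noise, against 43.4% of all tested genes and 80.4% of those counted at least as high as Was. The most abundant were Arpc2 at 177 ± 10.03, Arpc5 at 135 ± 7.69 and Arpc3 at 97.2 ± 2.89 CPM per kilobase. Each of these 3 stood above Was itself. Among 18 WASP and WAVE activators the highest were Brk1, a WAVE complex subunit, at 160 ± 8.20, the cortactin relative Hcls1 at 63.5 ± 5.75 and the WAVE subunit Abi1 at 55.7 ± 3.55.

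Among bundlers and crosslinkers, Flna at 56.8 ± 2.10 and Tagln2 at 38.7 ± 4.10 were the highest, followed by Lcp1. Capzb (70.4 ± 2.94), Gsn (59.7 ± 8.58) and Capza2 (54.9 ± 5.71) led the capping and severing genes. The formin Fmnl1 at 68.0 ± 2.66, Vasp at 52.6 ± 3.55 and the formin Diaph1 at 35.2 ± 1.55 led the filament elongators. Of genes that tie filaments to the membrane or contract them, ezrin (Ezr) stood at 143 ± 6.13, the myosin light chain Myl6 at 92.6 ± 14.4 and moesin (Msn) at 74.2 ± 7.35. Among the listed kinases and phosphatases, Stk4 had 74.5 ± 4.77, Pak2 27.7 ± 0.621 and Limk2 17.3 ± 1.84. Srf itself had 24.2 ± 0.917 CPM per kilobase, and its actin-sensing cofactors Mrtfa and Mrtfb had 13.3 ± 1.22 and 3.46 ± 0.349. Cap1, a cyclase-associated monomer binder, had 91.5 ± 6.74, and Coro7 was the third coronin by level after Coro1a and Coro1b.

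**Figure D5:**
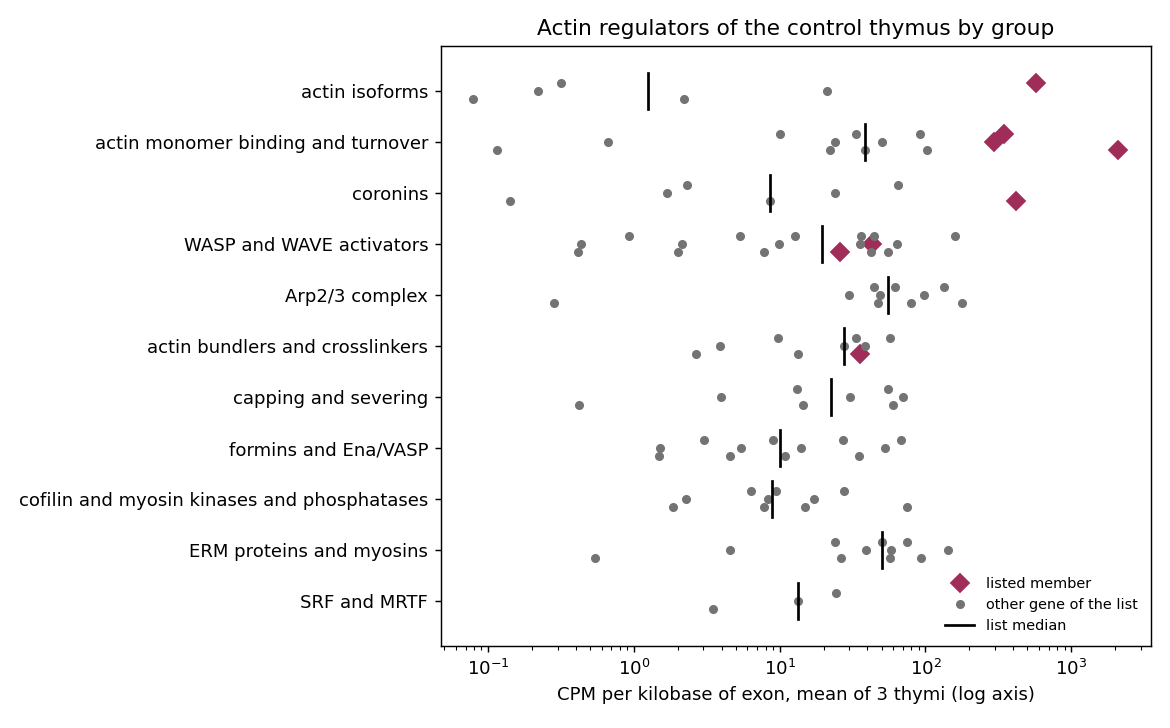
Mean level over 3 thymi in CPM per kilobase of exon (horizontal axis, logarithmic) of each gene in groups of actin regulators, with the listed genes as diamonds, other genes as dots and a bar at each group's median. Each listed gene shown, from Wipf1 at 26.0 to Tmsb4x at 2101, lies above the median of its group.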

How the data were processed

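The deposited files hold raw read counts per gene, 1 file a library, in the layout of STAR's gene counting. The submitters' processing notes name STAR 2.5.3a, the build GRCm38 and DESeq2, the last without a version. The library kit was TruSeq Stranded mRNA, per the labels. Any trimming, like the annotation release, was not given in the sources used here. Column 4, the reverse-strand counts, was used. Of all reads, 67.7%, 69.1% and 66.4% were assigned to genes in thymus 1, 2 and 3, and 14.4%, 14.0% and 15.5% mapped to several places and were not counted. The summary lines entered no library size.

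Symbols, coordinates and exon lengths come from GENCODE M21, which matched 52489 of 52636 identifiers. Tools were R 4.3.3, DESeq2 1.42.0, limma 3.58.1 and edgeR 4.0.16. Its filter (minimum count 10, total 15) left 16548 genes, and TMM factors were 1.00, 1.03 and 0.971. All tests were fitted on the whole table with Benjamini-Hochberg adjustment at 0.05: an intercept-only robust quasi-likelihood fit whose dispersion was divided by the trend and referred to F with 5.24 prior degrees of freedom, one-sided, and a goodness of fit at a dispersion of 0. The first was checked on simulated counts. A count of 3 corresponds to 0.0986, 0.102 and 0.122 CPM. Without molecular identifiers, such limits take in counting error only. A lowess curve of span 0.3 took the GC trend out of each library. Shared stretches were 50 bases, sought in transcripts of genes at other loci.

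The genes, lists, pairs and alternatives were chosen with earlier results of these data known. Named were all 10 genes, their relatives, the 3 highest of each pathway list, its genes below 1 CPM or called, and the nearest gene by level (prior 0.5 CPM). Fscn1, Arhgap15, Gm6180 and the most abundant genes were named after their values were seen. Alternatives were other scaling, filters, columns, tests and lengths, a GC correction and each library left out. Part of the pathway lists is not reported here.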

Additional observations from a re-analysis of the deposited data

Results flagged for a closer look

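Reads on the strand opposite to the gene enter none of the comparisons above, and for 9 of the 10 genes they exceeded the 3 counts that a count of 0 allows in every library. The share of all tested genes that pass this limit is not given. A gene with more reads passes it more easily, so the number sets these genes apart from no others. The opposite-strand share is the opposite-strand count in percent of the counts on both strands, as the median over the 3 thymi. It was 0.380% for Rhoh, 0.242% for Pfn1, 0.193% for Wipf1 and 0.148% for Tmsb4x. It was 0.0837% for Lcp1, 0.0647% for Cfl1, 0.0628% for Coro1a, 0.0484% for Actb and 0.0443% for Rac2. Over all tested genes the median was 0.186%, from counts summed over the 3 libraries. Annotated genes on the other strand overlap exons of Lcp1 (Gm15628 by 311 and Gm15629 by 219 bases), Cfl1 (Snx32 by 468 bases) and Coro1a (Bola2 by 26 bases). Was, the lowest of the 10 in CPM, had 3, 4 and 3 opposite-strand counts in thymus 1, 2 and 3 and did not pass that limit. With 3 libraries, no library was tested as standing apart.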

How the results depend on the processing

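No paired analysis was possible because the libraries form 1 group. Against 10 genes above the variability trend, there were 20 with library totals in place of TMM, 285 with no filter on low counts, 81 as dispersion outliers of DESeq2 and 122 in edgeR's negative binomial fit, and 25, 23 and 137 without thymus 1, 2 and 3. The count was 8 to 13 under the 6 other alternatives. None of the 10 actin genes was called under any of these. The 7188 genes beyond counting noise became 3768 without thymus 3, 4348 without thymus 2 and 6579 without thymus 1. Was was called beyond counting noise with library totals (adjusted p = 0.00311), and Wipf1 was not with the GC trend removed (adjusted p = 0.110), both by edgeR. The number of neighbouring pairs apart in level stayed at 7 to 9 and that of pairs above the relative at 12 or 13. Leaving shared stretches out of the lengths was added after the data were seen and moved Actb, Cfl1 and Was to 635, 370 and 44.7 CPM per kilobase. Counting multimapping reads against a genome was not run. At the depth of the shallowest library the counting error of a listed gene reached 2.02%.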
